A study of Mus musculus with 12 samples.

Results

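Reciprocal bone marrow chimeras place the loss of ST2 on one side of the graft only. In WT => St2-/- mice the irradiated host lacked St2 and the transplanted marrow was wild type, and in St2-/- => WT mice the host was wild type and the marrow lacked St2. The 6 colon tumours of these chimeras, 3 in each group, were chosen by their labels from the 12 tumours of the study, and they are described across 15060 genes. The remaining 6 tumours came from mice whose host and marrow had the same genotype, St2-/- => St2-/- and WT => WT (3 each). They were fitted together with the 6 reciprocal tumours, so they also shape the gene filter, scaling and spread behind each reciprocal p. Their levels enter where the reciprocal comparison is set beside a comparison that shares no tumour with it.

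All mice were of the Balb/c background. Hosts received 2 irradiation doses of 5 Gy and then donor marrow cells, and were given 8 weeks to reconstitute. Azoxymethane (AOM), a carcinogen that induces colon tumours in mice, was then injected weekly for 6 weeks at 10 mg per kg. Tumours were excised 14, 13 and 13 weeks after the last injection in WT => St2-/- replicates 1, 2 and 3. For St2-/- => WT replicates 1, 2 and 3 it was 13, 13 and 14 weeks. In the matched chimeras it was 14, 14 and 13 weeks for St2-/- => St2-/- replicates 1 to 3, and 13, 13 and 14 weeks for WT => WT replicates 1 to 3. Among the reciprocal chimeras, WT => St2-/- replicate 3 was a female and the other 5 mice were males. The sources used here do not give the age of the mice, the degree of chimerism or the exons removed in St2-/- mice. The St2-/- hosts carry the deletion in every host cell, without restriction to a cell type. The numbers in the sample labels had 3 digits for St2-/- hosts and 5 digits for WT hosts. A difference in cohort, if there was one, cannot be told apart from one in host genotype.

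ST2, the product of Il1rl1, is the receptor for the alarmin interleukin-33, which damaged epithelial and stromal cells release. It is carried by mast cells, group 2 innate lymphoid cells, regulatory T cells and Th2 cells, and in the gut also by some epithelial and stromal cells. After irradiation and transplantation, epithelium, stroma and endothelium keep the genotype of the host, while most blood-borne leukocytes come from the donor marrow. Interferon-gamma, made chiefly by T and NK cells, acts on most cell types, induces IRF1 and switches on antigen presentation, immunity-related GTPases and guanylate-binding proteins.

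Each library held 10293818 to 12216950 reads counted in genes in WT => St2-/- tumours and 11697973 to 12735295 in St2-/- => WT tumours. Counts outside any named gene made up 54.3% to 58.5% of the deposited total in WT => St2-/- libraries and 49.8% to 50.2% in St2-/- => WT libraries, without overlap. Most of these were alignments that were not unique, at 42.4% to 45.6% in WT => St2-/- libraries and 36.7% to 37.2% in St2-/- => WT libraries. The part of this difference in the results below was not tested. The epithelial marker Krt8 stood at 3059, 1164 and 2399 CPM (read counts scaled to library size) in WT => St2-/- tumours and 3251, 3988 and 3025 CPM in St2-/- => WT tumours. Squamous Krt5 did not exceed 0.783 CPM in any of these 6 libraries. Smooth muscle content differed within both groups, with summed levels of its 20 listed genes of 585, 4665 and 2245 CPM in WT => St2-/- replicates 1 to 3 and 3833, 2053 and 799 CPM in St2-/- => WT replicates 1 to 3. Xist stood at 2013 CPM in the female, WT => St2-/- replicate 3, and at 14.6 to 75.6 CPM in the 5 males.

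Il1rl1, the deleted gene, was lower in all 3 WT => St2-/- tumours than in any St2-/- => WT tumour, but the difference was not called. It lies on chromosome 1 from 40429570 to 40465415, on the forward strand of GRCm38. Its levels were 11.9, 25 and 7.3 CPM in WT => St2-/- tumours and 125, 36.5 and 193 CPM in St2-/- => WT tumours. Replicate 2 was the highest of the WT => St2-/- tumours and the lowest of the St2-/- => WT tumours, and the groups did not overlap. In the chimeras whose marrow and host matched, its levels were 13.4, 7.91 and 10.7 CPM in St2-/- => St2-/- tumours and 53.5, 132 and 275 CPM in WT => WT tumours. The WT => St2-/- values overlapped those of St2-/- => St2-/- tumours, where both marrow and host carry the deletion and reads were still counted in the gene. The log2 fold change of WT => St2-/- over St2-/- => WT was -3.0 (standard error, SE, 0.72), with an edgeR quasi-likelihood p of 0.2 after Benjamini-Hochberg adjustment over all genes. Under the DESeq2 Wald test the adjusted p was 0.000733. Il33, which encodes the ligand, stood at 31, 20.2 and 25.1 CPM in WT => St2-/- tumours and 184, 26.3 and 60.6 CPM in St2-/- => WT tumours, where replicate 1 was far above the others. The groups overlapped, and its log2 fold change of -1.83 was not called (SE 0.68, edgeR adjusted p = 0.509).

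Between WT => St2-/- and St2-/- => WT tumours, 36 of the 15060 genes were called at an adjusted p under 0.05, which is 0.239% of the genes tested. Of these, 35 were lower (0.232%) and 1 was higher (0.00664%) in WT => St2-/- tumours. The lower genes were mostly interferon-inducible, and their levels in WT => St2-/- tumours were 2.38-fold to 203-fold below those in St2-/- => WT tumours. In such bulk samples, fewer cells of a type and less RNA per cell cannot be told apart. Immunity-related GTPases gave 6 of the 36 genes, guanylate-binding proteins 3, and MHC class I presentation with its peptide supply 6. Another 5 carried predicted-gene (Gm) names and were not assigned to a family, so these family counts may be too low. For each of the 36, the 3 and 3 libraries did not overlap; of all 15060 genes tested, 6.07% were lower and 5.73% were higher in WT => St2-/- tumours without overlap. A further measure of the background is that 1339 genes (8.89%) had an unadjusted p under 0.05. The lists of genes that follow hold 26 of the 36 called genes, and 23 of them lie in the lists for the interferon-gamma response, the type I interferon response and MHC class I or class II presentation.

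The number of calls depended on which tumours and which test were used. It was 0 of 14599 genes when edgeR was fitted to these 6 libraries alone, where 828 genes had an unadjusted p under 0.05, and it was 259 with DESeq2, of which 212 were lower. Leaving out WT => St2-/- replicates 1, 2 or 3 left 3, 5 and 1 calls, leaving out St2-/- => WT replicates 1, 2 or 3 left 3, 2 and 4, leaving out St2-/- => St2-/- replicate 1 left 3, and leaving out WT => WT replicates 2 or 3 left 9 and 2. Leaving out WT => WT replicate 1, St2-/- => St2-/- replicate 2 or St2-/- => St2-/- replicate 3 gave 43, 42 and 39 calls. With weeks after AOM as a covariate 2 genes were called, and with the replicate number as a block 1 gene, Wipi1. All 36 genes kept the sign of their difference in each of the 22 alternatives run.

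**Figure D1:**
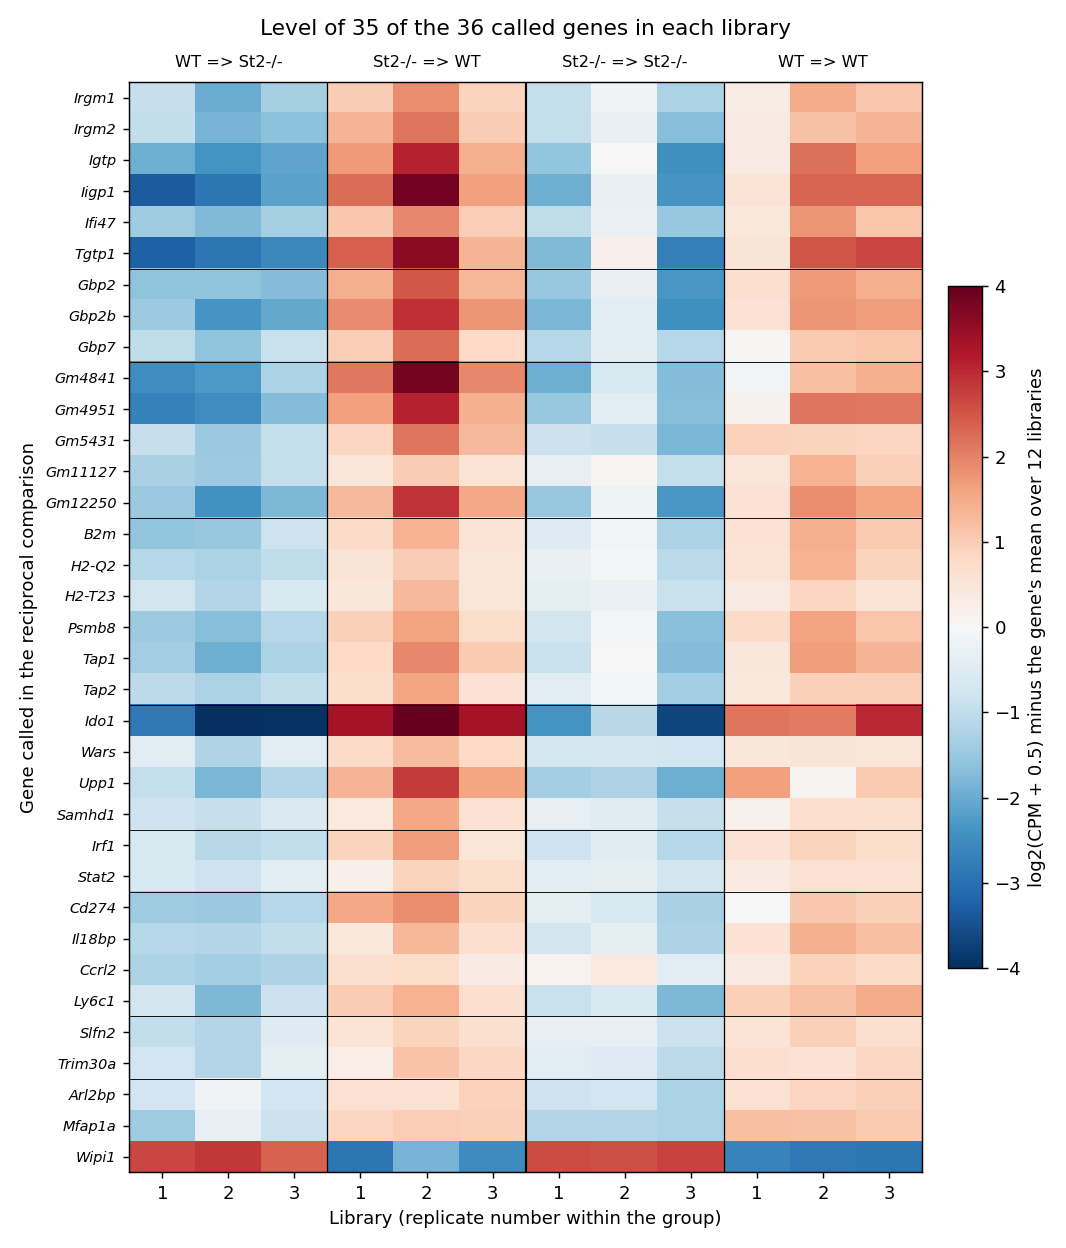
Levels of 35 of the 36 called genes (rows, grouped by family) in the 12 tumours (columns), as log2(CPM + 0.5) minus the mean of the gene over the 12 libraries; colours are cut at 4 in either direction. In the first 6 columns, 34 genes are lower in every WT => St2-/- tumour than in any St2-/- => WT tumour, and Wipi1 in the lowest row shows the opposite.

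Ido1, which encodes the enzyme that opens tryptophan on the way to kynurenine and is a classical interferon-gamma target, showed the largest difference of the called genes. It lies on the reverse strand of chromosome 8 from 24584136 to 24597009. Its levels were 2.45, 0.696 and 0.879 CPM in WT => St2-/- tumours and 210.5, 405 and 212 CPM in St2-/- => WT tumours. Every St2-/- => WT tumour was far above every WT => St2-/- tumour, and St2-/- => WT replicate 2 was the highest. The log2 fold change was -7.66 (SE 0.79, edgeR adjusted p = 0.0096), a level 203-fold lower in WT => St2-/- tumours. Wars, which encodes the tryptophanyl-tRNA synthetase and is also interferon-inducible, stood at 233, 139 and 233 CPM in WT => St2-/- tumours and 543, 765 and 562 CPM in St2-/- => WT tumours. It fell by 1.63 on the log2 scale (SE 0.21, edgeR adjusted p = 0.0288). Upp1, a uridine phosphorylase, fell to 40.5, 21.7 and 34.6 CPM in WT => St2-/- tumours, against 204, 557 and 236 CPM in St2-/- => WT tumours (log2 fold change -3.36, edgeR adjusted p = 0.0339). Samhd1, a nucleotide hydrolase of antiviral defence, also fell, with a log2 fold change of -1.71 (edgeR adjusted p = 0.0481).

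Among genes of surface and secreted proteins, Cd274, which encodes the checkpoint ligand PD-L1, fell to 9.65, 9.22 and 12 CPM in WT => St2-/- tumours, against 80.2, 99.9 and 50.6 CPM in St2-/- => WT tumours. The highest WT => St2-/- tumour was well below the lowest St2-/- => WT tumour. Its log2 fold change was -2.9 (SE 0.36, edgeR adjusted p = 0.0288), or 7.46-fold lower. Ccrl2, an atypical receptor that binds chemerin, fell to 1.52, 1.39 and 1.58 CPM in WT => St2-/- tumours, against 7.07, 7.54 and 5.64 CPM in St2-/- => WT tumours. The difference was -2.16 on the log2 scale (SE 0.32, edgeR adjusted p = 0.0339). Il18bp, the soluble inhibitor of interleukin-18, had a log2 fold change of -2.0 (edgeR adjusted p = 0.0368), and Ly6c1, a surface protein of monocytes and endothelium, one of -2.13 (edgeR adjusted p = 0.0478). Slfn2, which keeps T cells quiescent in mice, fell to 22.7, 19.9 and 31.8 CPM in WT => St2-/- tumours, against 65.9, 85.2 and 70.4 CPM in St2-/- => WT tumours (log2 fold change -1.57, edgeR adjusted p = 0.0339). Trim30a, another interferon-inducible gene, had a log2 fold change of -1.55 (edgeR adjusted p = 0.0478).

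The transcription factors that carry interferon signals were part of the difference. Irf1, which interferon-gamma induces and which in turn drives genes of antigen presentation, stood at 151, 106 and 116 CPM in WT => St2-/- tumours and 429, 736 and 322 CPM in St2-/- => WT tumours. It fell by 2.0 on the log2 scale (SE 0.29, edgeR adjusted p = 0.0339). Stat2, the partner of IRF9 in type I interferon signalling, stood at 80.6, 69.8 and 92.5 CPM in WT => St2-/- tumours and 142, 228 and 209 CPM in St2-/- => WT tumours. Its log2 fold change was -1.26 (SE 0.19, edgeR adjusted p = 0.0339). Ifng, which encodes interferon-gamma itself, had 0, 1 and 0 reads in WT => St2-/- libraries and 21, 48 and 6 reads in St2-/- => WT libraries. These counts are small, and Ifng was not called (edgeR adjusted p = 0.0801).

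**Figure D2:**
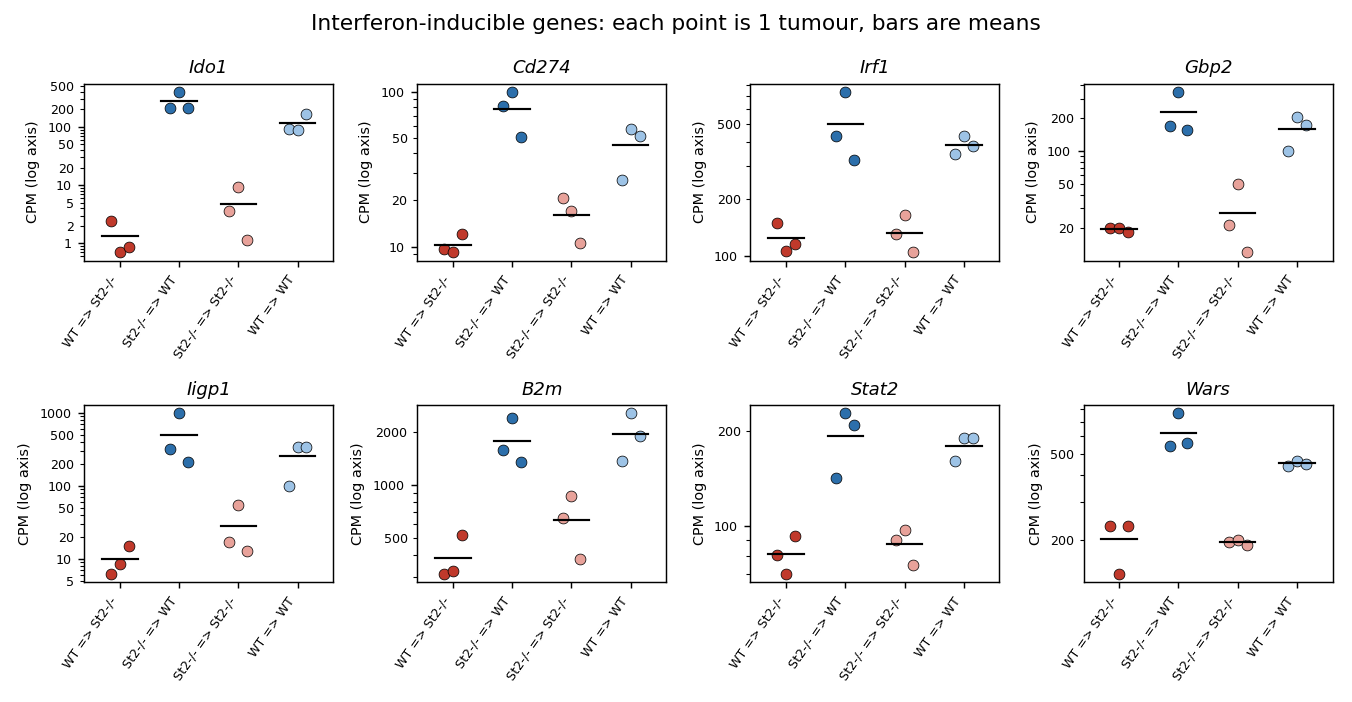
Levels of 8 called interferon-inducible genes in CPM on log axes, with 1 point for each tumour and a bar at the mean of its group. For each gene the 3 WT => St2-/- tumours lie below the 3 St2-/- => WT tumours; Ido1 spans 0.696 to 405 CPM across these groups.

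GTPases of cell-autonomous immunity made up the largest family. The immunity-related GTPases Irgm1, Irgm2, Igtp, Iigp1, Ifi47 and Tgtp1 fell with log2 fold changes between -5.94 and -2.68, and the guanylate-binding protein genes Gbp2, Gbp2b and Gbp7 with log2 fold changes between -4.22 and -2.64 (edgeR adjusted p 0.0339 to 0.0478 in both families). Iigp1, whose product attacks the vacuoles of intracellular parasites, stood at 6.18, 8.61 and 15 CPM in WT => St2-/- tumours and 319, 988 and 211 CPM in St2-/- => WT tumours, a difference of -5.67 on the log2 scale (SE 0.87). Gbp2b stood at 37.7, 20.1 and 24.6 CPM in WT => St2-/- tumours and 389, 787 and 357 CPM in St2-/- => WT tumours (log2 fold change -4.22, SE 0.59). Gbp2 stood at 20.0, 19.8 and 18.3 CPM in WT => St2-/- tumours and 169.7, 347 and 157 CPM in St2-/- => WT tumours (log2 fold change -3.53, SE 0.52). Ifi47 stood at 27.6, 21.6 and 29.2 CPM in WT => St2-/- tumours and 158, 286 and 149 CPM in St2-/- => WT tumours (log2 fold change -2.92, SE 0.42). Irgm2 stood at 44.5, 24 and 28.4 CPM in WT => St2-/- tumours and 231, 397 and 183 CPM in St2-/- => WT tumours (log2 fold change -3.06, SE 0.44). St2-/- => WT replicate 2 was the highest library for each of these 5 genes, and the highest of its group for 34 of the 35 lower called genes. For these 5 genes, no WT => St2-/- tumour reached any St2-/- => WT tumour. The 5 predicted genes that were called were Gm4841, Gm4951, Gm5431, Gm11127 and Gm12250, with log2 fold changes between -5.76 and -1.94. The RefSeq gene table lists Gm4951 and Gm4841 under the synonyms Ifgga2 and Ifgga3 and Gm12250 under Irgb10. Members of these families share sequence, and Igtp and Irgm2 overlap in GENCODE M21 on chromosome 11 (58199556 to 58207591 and 58199618 to 58222782, both on the forward strand), so the split of reads among them is uncertain.

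In the pathway that loads peptides on MHC class I, B2m, the light chain of the complex, fell to 313, 324 and 523 CPM in WT => St2-/- tumours, against 1573, 2413 and 1349 CPM in St2-/- => WT tumours. On the log2 scale this was a change of -2.2 (SE 0.37, edgeR adjusted p = 0.0478). Tap1 and Tap2, which pump peptides into the endoplasmic reticulum, fell with log2 fold changes of -2.86 and -2.13 (edgeR adjusted p = 0.0481 and 0.0433). Psmb8, a catalytic subunit of the immunoproteasome, had a log2 fold change of -2.58 (edgeR adjusted p = 0.0368). H2-Q2 and H2-T23, class I heavy chains of the non-classical kind, had log2 fold changes of -1.9 and -1.62 (edgeR adjusted p = 0.0433 and 0.0478). The classical heavy chain H2-K1 stood at 61, 57.5 and 74.4 CPM in WT => St2-/- tumours and 215, 283 and 183 CPM in St2-/- => WT tumours and was not called (log2 fold change -1.82, edgeR adjusted p = 0.0937). Class I heavy chain genes resemble one another closely, and their separate levels are uncertain.

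The called genes lay on 13 chromosomes. Chromosome 11, which carries the largest mouse cluster of immunity-related GTPases, held 11 of the 36 called genes (30.6%) and 8.52% of the 14375 tested genes with a single position. Chromosome 17, which carries the MHC, held 6 of the 36 (16.7%) and 5.15% of tested genes. The other 19 were spread over 11 chromosomes.

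The stretches upstream of the called genes were read for the motifs through which interferons act, and 5 of them are shown for genes of different steps. These are a transcription factor of each interferon type, 2 GTPases and the MHC light chain, and each is described above. The GAS, the gamma-activated site, was searched as TTCNNNGAA, and the core of the ISRE, bound by STAT2 complexes and by IRF factors, as GAAANNGAAA or its reverse complement TTTCNNTTTC. Both strands were read in the 250 bases before each gene start in RefSeq (GRCm38.p6), and capitals mark the matches.
Irf1 (GAS, chr11:53769764-53770013, forward strand): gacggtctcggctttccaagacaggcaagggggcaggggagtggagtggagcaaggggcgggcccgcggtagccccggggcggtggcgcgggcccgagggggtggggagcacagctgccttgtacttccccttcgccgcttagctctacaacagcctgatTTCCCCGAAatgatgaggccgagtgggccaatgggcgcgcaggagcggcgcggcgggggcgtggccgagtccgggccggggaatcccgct
Stat2 (ISRE core, chr10:128270248-128270497, forward strand): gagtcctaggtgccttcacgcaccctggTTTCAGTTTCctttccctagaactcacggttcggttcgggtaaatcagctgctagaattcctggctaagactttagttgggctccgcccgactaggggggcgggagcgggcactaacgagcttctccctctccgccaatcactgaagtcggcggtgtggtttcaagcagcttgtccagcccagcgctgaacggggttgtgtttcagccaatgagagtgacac
Irgm2 (GAS and ISRE core, chr11:58214727-58214976, forward strand): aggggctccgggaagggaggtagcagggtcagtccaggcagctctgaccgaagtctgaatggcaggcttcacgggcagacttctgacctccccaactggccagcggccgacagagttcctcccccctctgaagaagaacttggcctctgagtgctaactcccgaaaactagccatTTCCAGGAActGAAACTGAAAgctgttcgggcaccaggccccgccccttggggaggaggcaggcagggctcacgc
Gbp2b (ISRE core, chr3:142594597-142594846, forward strand): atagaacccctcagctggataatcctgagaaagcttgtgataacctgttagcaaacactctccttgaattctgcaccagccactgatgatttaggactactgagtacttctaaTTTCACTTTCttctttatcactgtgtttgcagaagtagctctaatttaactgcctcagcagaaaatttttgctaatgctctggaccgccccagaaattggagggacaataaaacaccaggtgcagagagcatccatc
B2m (ISRE core, chr2:122147437-122147686, forward strand): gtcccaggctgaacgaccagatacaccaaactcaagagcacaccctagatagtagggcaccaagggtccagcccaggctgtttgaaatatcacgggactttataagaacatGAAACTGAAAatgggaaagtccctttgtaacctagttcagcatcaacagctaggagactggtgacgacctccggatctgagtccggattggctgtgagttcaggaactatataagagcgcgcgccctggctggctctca

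Of the 36 called genes, 29 had such a stretch in the RefSeq table. The GAS occurred in 9 of the 29 (31.0%) and in 7.02% of all 32851 stretches of the same length, and the ISRE core in 13 of the 29 (44.8%) and in 2.98% of all stretches. At least 1 of the 2 motifs was present in 17 of the 29 (58.6%), against 9.66% of all stretches. Both were present upstream of Gbp7, Gm12250, Igtp, Irgm2 and Tgtp1 (5 of 29), against 0.332% of all stretches. In the Irgm2 stretch the GAS begins 75 bases and the ISRE core 64 bases before the gene start. Wipi1, the gene that was higher, also had a GAS match. Some genes have several starts, each counted in the total of all stretches. A called gene was counted once, as having a motif if any of its starts did, so the shares are not strictly alike. A match of letters is not evidence of binding.

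Genes outside the interferon families were also called. Wipi1, which encodes a phosphoinositide-binding protein that helps form autophagosomes, was the 1 gene that rose. It lies on the reverse strand of chromosome 11 from 109573331 to 109611967. Its levels were 27, 30.2 and 21.5 CPM in WT => St2-/- tumours and 0.0862, 0.686 and 0.26 CPM in St2-/- => WT tumours, where it had 1, 8 and 3 reads. The log2 fold change was 6.21 (SE 0.46, edgeR adjusted p = 0.000552). Wipi1 was the only called gene among 32 tested genes of the autophagy core, whose median log2 fold change was -0.02. Its call was kept in 21 of the 22 alternatives and lost, at an adjusted p of 0.0736, when only these 6 libraries were fitted.

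Mfap1a, which encodes a spliceosome-associated protein and shares sequence with Mfap1b, fell to 3.98, 9.04 and 6.06 CPM in WT => St2-/- tumours, against 21.2, 22.8 and 22.3 CPM in St2-/- => WT tumours. Its log2 fold change was -1.8 (SE 0.25, edgeR adjusted p = 0.0339), and WT => St2-/- replicate 2 was the highest of its group. Arl2bp, a binding partner of the small GTPase ARL2, fell to 54.2, 83.3 and 54.8 CPM in WT => St2-/- tumours, against 141, 141 and 175 CPM in St2-/- => WT tumours. Here too WT => St2-/- replicate 2 was the highest of its group, and the log2 fold change was -1.25 (SE 0.20, edgeR adjusted p = 0.0433).

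**Figure D3:**
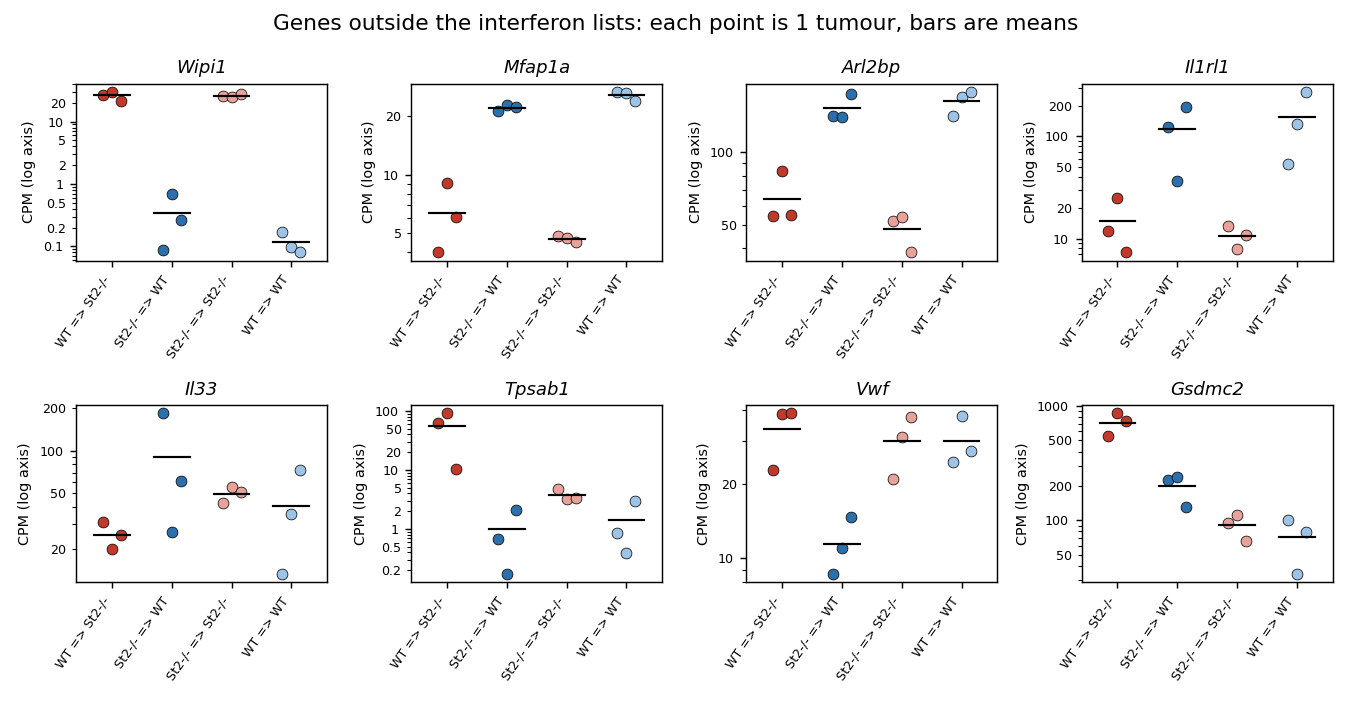
Levels of 8 genes outside the interferon lists in CPM on log axes, with 1 point for each tumour and a bar at the mean of its group. Wipi1 is at 21.5 CPM or above in each WT => St2-/- tumour and at 0.686 CPM or below in each St2-/- => WT tumour; Il1rl1, Il33, Tpsab1, Vwf and Gsdmc2 were not called.

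The remaining genes were read by lists of pathways and cell types, 34 in all. In the interferon-gamma list, 18 of 47 tested members were called and each was lower in WT => St2-/- tumours. All 47 had a negative log2 fold change, 45 were lower without overlap, and the median was -2.74. Over all genes tested, 0.232% were called lower, 49.4% had a negative log2 fold change, 6.07% were lower without overlap, and the median was 0.00464. Summed over the list, levels were 978 to 1546 CPM in WT => St2-/- tumours and 5618 to 12406 CPM in St2-/- => WT tumours. St2-/- => WT replicate 2 was the highest of its group for 43 of the 47 members. The chemokines Cxcl9 and Cxcl10, which draw T cells through CXCR3, stood at 0.931, 3.3 and 2.2 CPM and 3.55, 2.17 and 3.6 CPM in WT => St2-/- tumours, against 52.2, 189 and 44.2 CPM and 31.2, 121 and 30.2 CPM in St2-/- => WT tumours. They were not called (edgeR adjusted p = 0.0947 and 0.0858). In the chemokine list of 27 tested genes, whose median was -0.70, the 1 called member was Ccrl2, a receptor and not a chemokine.

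Of 36 tested type I interferon genes, Stat2 and Trim30a were called lower, all 36 had a negative log2 fold change, 22 were lower without overlap, and the median was -1.27. Of 21 tested MHC class I genes, 6 were called lower, all 21 were lower without overlap, and the median was -1.60. None of 13 tested MHC class II genes was called. All 13 had a negative log2 fold change, with a median of -1.98, and 6 were lower without overlap. The shares of all genes tested were 0.232% called lower, 49.4% with a negative log2 fold change and 6.07% lower without overlap. Cd74, the invariant chain that escorts class II molecules, stood at 136, 259 and 503 CPM in WT => St2-/- tumours and 1736, 2731 and 776 CPM in St2-/- => WT tumours. Its log2 fold change was -2.55 (SE 0.54, edgeR adjusted p = 0.109). Class II levels also ranged widely within each group, summing to 482, 663 and 1272 CPM in WT => St2-/- tumours and 3280, 5087 and 1504 CPM in St2-/- => WT tumours.

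**Figure D4:**
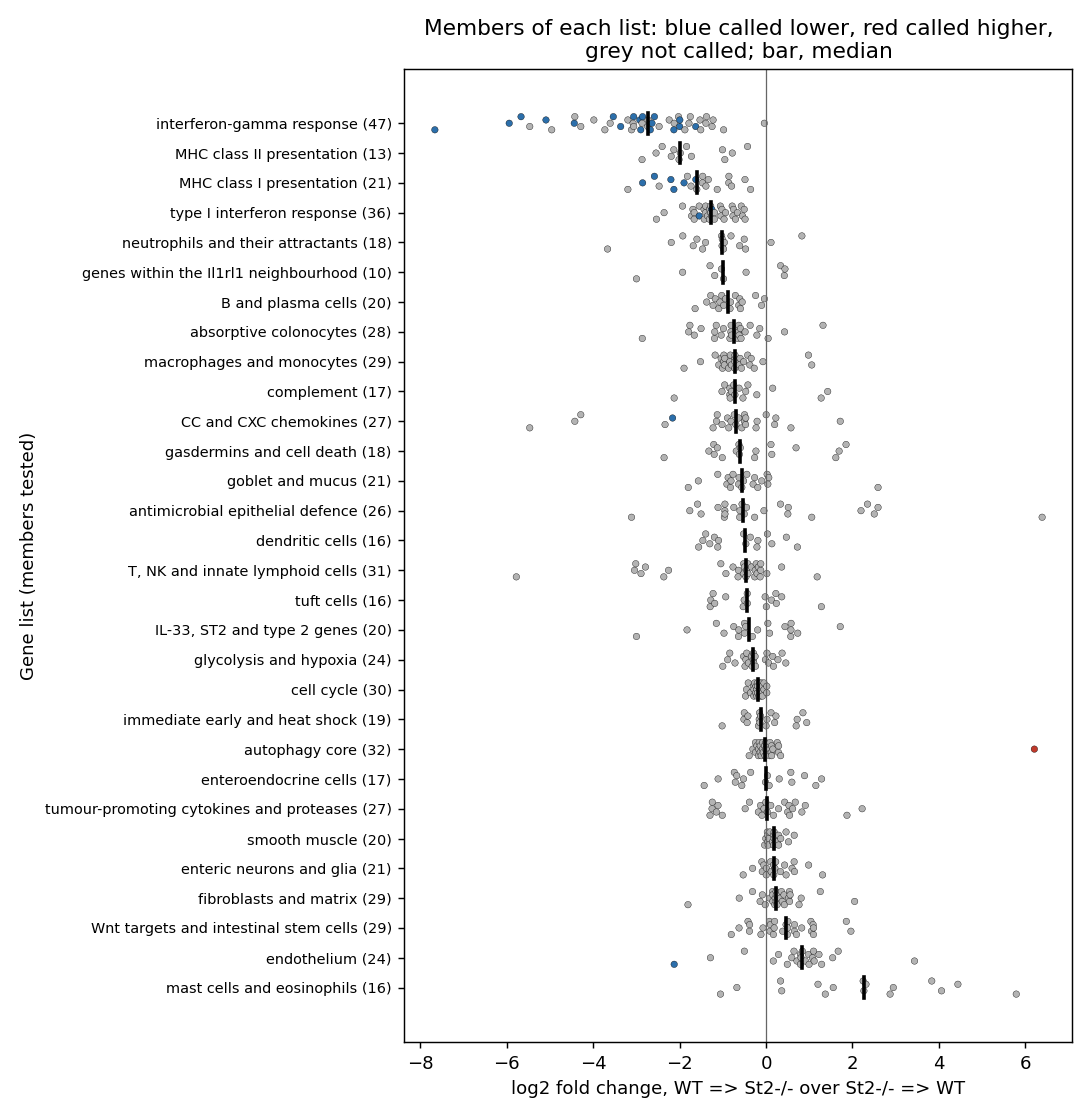
Log2 fold changes of WT => St2-/- over St2-/- => WT for the tested members of the 30 lists with at least 10 of them, with the number tested in brackets; points are genes and black bars are medians. The interferon-gamma list has the lowest median, -2.74, with 18 members called lower, and the mast cell and eosinophil list has the highest, 2.25, with no call.

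Cell types that could carry these genes were read from their markers. None of 29 tested macrophage and monocyte genes was called. Of these genes, 27 had a negative log2 fold change, with a median of -0.72, and 9 were lower without overlap. Their summed level was 922 to 1983 CPM in WT => St2-/- tumours and 1463 to 2551 CPM in St2-/- => WT tumours, which overlapped. None of 31 tested genes of T, NK and innate lymphoid cells was called. Of these genes, 28 had a negative log2 fold change, with a median of -0.47, and 6 were lower without overlap. Their summed level was 80.9 to 198 CPM in WT => St2-/- tumours and 114 to 280 CPM in St2-/- => WT tumours. Over all genes tested, 49.4% had a negative log2 fold change and 6.07% were lower without overlap. The T cell receptor subunit Cd3e stood at 0.846, 4.0 and 7.47 CPM in WT => St2-/- tumours and 5.86, 9.0 and 2.78 CPM in St2-/- => WT tumours, with overlap. Cd8a, the co-receptor of cytotoxic T cells, stood at 0.339, 1.91 and 1.76 CPM in WT => St2-/- tumours and 12.2, 11.7 and 8.59 CPM in St2-/- => WT tumours, without overlap and not called (log2 fold change -3.01, edgeR adjusted p = 0.332). Genes of absorptive colonocytes, the mature surface epithelium, summed to 18311, 7074 and 13228 CPM in WT => St2-/- tumours and 20293, 30573 and 17209 CPM in St2-/- => WT tumours. None of the 28 tested was called, and their median was -0.75. The part of these cell types in the difference of the interferon genes was not tested.

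Mast cell and endothelial genes mostly had positive log2 fold changes, that is, higher fitted levels in WT => St2-/- tumours, without a call in that direction. Summed over the mast cell and eosinophil list, levels overlapped between the groups. They were 820, 2433 and 309 CPM in WT => St2-/- replicates 1 to 3 and 427, 156 and 371 CPM in St2-/- => WT replicates 1 to 3. The 16 tested mast cell and eosinophil genes had a median log2 fold change of 2.25, the highest of the 34 lists, and 4 were higher without overlap, Cma1, Cma2, Mcpt4 and Tpsab1, against 5.73% of all genes tested. Tpsab1, a mast cell tryptase, stood at 63.3, 90.5 and 10.3 CPM in WT => St2-/- tumours and 0.689, 0.171 and 2.08 CPM in St2-/- => WT tumours. Its log2 fold change was 5.79 (SE 1.02), just outside the threshold at an edgeR adjusted p of 0.0516. Mcpt4, a chymase of connective tissue mast cells, stood at 12.3, 46.3 and 5.27 CPM in WT => St2-/- tumours and 2.41, 0.343 and 1.04 CPM in St2-/- => WT tumours (log2 fold change 4.06, edgeR adjusted p = 0.1). The mucosal mast cell protease Mcpt1 stood at 299.7, 1189 and 94.3 CPM in WT => St2-/- tumours and 129, 17.6 and 58.9 CPM in St2-/- => WT tumours, with overlap. WT => St2-/- replicate 2, the tumour with the most smooth muscle, was the highest of its group for 13 of the 16 genes, and the part of that library was not tested.

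Of 24 tested endothelial genes, 13 were higher without overlap in WT => St2-/- tumours, against 5.73% of all genes tested. The median log2 fold change of the list was 0.82, and Ly6c1, described above, was the 1 called member and was lower. Vwf, the von Willebrand factor of blood clotting, stood at 22.8, 38.6 and 38.8 CPM in WT => St2-/- tumours and 8.62, 11.1 and 14.7 CPM in St2-/- => WT tumours (log2 fold change 1.54, SE 0.30, edgeR adjusted p = 0.0833). The adhesion molecule Pecam1 stood at 74.5, 68.5 and 69.9 CPM in WT => St2-/- tumours and 45.3, 36 and 40.2 CPM in St2-/- => WT tumours, without overlap and with an edgeR adjusted p of 0.531. The summed level of the list was 745 to 955 CPM in WT => St2-/- tumours and 609 to 691 CPM in St2-/- => WT tumours. Gsdmc2, a gasdermin of the gut epithelium that interleukin-4 and interleukin-13 induce in mice, stood at 546, 862 and 742 CPM in WT => St2-/- tumours and 226, 239 and 131 CPM in St2-/- => WT tumours. It was not called (log2 fold change 1.85, edgeR adjusted p = 0.109). Of the 34 lists, 28 held no call, and their medians lay between -1.98 and 2.25.

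The tumours with matched host and marrow allow the same host contrast to be read in 6 other tumours. Comparing St2-/- => St2-/- with WT => WT keeps the host difference and turns the marrow difference round. All 36 genes called between the reciprocal chimeras differed in the same direction there, and all 36 had an unadjusted p under 0.05. Over all genes tested, 68.9% had the same direction and 12.1% had the same direction with such a p. The p-values of both comparisons come from the same fit, which shares the spread of each gene. A gene called for its low spread therefore tends to a low p in the matched comparison as well. The count of genes with such a p is thus not an independent check. At an adjusted p under 0.05, 4 genes (0.0266%) were called in the matched comparison. For 34 of the 35 lower genes, all 6 tumours of St2-/- hosts lay below all 6 tumours of WT hosts. The reciprocal part of this was already given, since every called gene was without overlap there. A low spread also favours groups without overlap in the matched comparison. The share over all genes was not computed, so this count is a description.

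The size of the difference was often larger between the reciprocal chimeras. The median log2 fold change of the 35 lower genes was -2.58 in the reciprocal comparison and -1.89 in the matched comparison, and 32 of the 36 called genes were larger in size in the reciprocal comparison. These genes were chosen in the reciprocal comparison, so the excess is a description. In the interferon-gamma list, 44 of 47 members were more negative in the reciprocal comparison, with medians of -2.74 in the reciprocal and -1.92 in the matched comparison. All 47 were negative in the matched comparison too, where 51.4% of all genes tested were. Over all genes tested, 49.1% were more negative in the reciprocal comparison. Ido1 stood at 3.59, 9.42 and 1.16 CPM in St2-/- => St2-/- tumours and 92.6, 88.2 and 169.9 CPM in WT => WT tumours, a log2 fold change of -4.63 against -7.66 in the reciprocal comparison. Cd274 stood at 20.6, 17 and 10.6 CPM in St2-/- => St2-/- tumours and 27.1, 57.2 and 52.1 CPM in WT => WT tumours, a log2 fold change of -1.5 against -2.9. For 21 of the 35 lower genes, the group means ran upward from WT => St2-/- through St2-/- => St2-/- and WT => WT to St2-/- => WT. The choice of these genes by the reciprocal difference favours such an order. Its share over all genes was not computed.

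Whether the 2 comparisons differ was tested for every gene, as the marrow difference averaged over hosts. By edgeR no gene was called (0 of 15060), the lowest adjusted p was 0.999, and 415 genes (2.76%) had an unadjusted p under 0.05; DESeq2 and limma-voom called 0 genes as well. Of the 36 genes, 6 had an unadjusted p under 0.05 in this test, among them Ido1 (0.00773), Cd274 (0.0139) and Ccrl2 (0.00486), each by edgeR. The 36 genes were chosen by the reciprocal difference, which is part of this contrast. That choice favours small p-values here, so these are a description. The MHC class II list had a median of -1.98 in the reciprocal comparison and -0.74 in the matched comparison. The endothelial list had medians of 0.82 in the reciprocal and -0.000312 in the matched comparison. Vwf stood at 21.1, 31 and 37.3 CPM in St2-/- => St2-/- tumours and 24.6, 37.7 and 27.4 CPM in WT => WT tumours, so the 3 St2-/- => WT tumours lay below the other 9 tumours. The mast cell list had medians of 2.25 in the reciprocal and 0.77 in the matched comparison, and Tpsab1 stood at 4.81, 3.24 and 3.4 CPM in St2-/- => St2-/- tumours and 0.859, 0.386 and 2.95 CPM in WT => WT tumours. Gsdmc2 stood at 94.5, 112 and 65.4 CPM in St2-/- => St2-/- tumours and 102, 33.7 and 79.3 CPM in WT => WT tumours, below all 6 tumours of the reciprocal chimeras. The medians of lists were not tested between the comparisons.

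The fitted log2 fold changes of 4 of the 36 genes, Wipi1, Mfap1a, Arl2bp and Ly6c1, were larger in size in the matched comparison. Wipi1 stood at 25.8, 25.2 and 27.4 CPM in St2-/- => St2-/- tumours and 0.172, 0.0966 and 0.0796 CPM in WT => WT tumours, a log2 fold change of 7.69 against 6.21 in the reciprocal comparison. Mfap1a stood at 4.81, 4.75 and 4.48 CPM in St2-/- => St2-/- tumours and 26.8, 26.3 and 23.9 CPM in WT => WT tumours, and its log2 fold change was -2.45 against -1.8. Arl2bp stood at 52, 54 and 38.3 CPM in St2-/- => St2-/- tumours and 141, 170.2 and 178 CPM in WT => WT tumours, and its log2 fold change was -1.76 against -1.25. Ly6c1 had a log2 fold change of -2.26 against -2.13. None of these 4 genes had an unadjusted p under 0.05 in the test of the difference between the comparisons, where edgeR gave 0.0658 for Wipi1, 0.0889 for Mfap1a, 0.0927 for Arl2bp and 0.778 for Ly6c1.

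**Figure D5:**
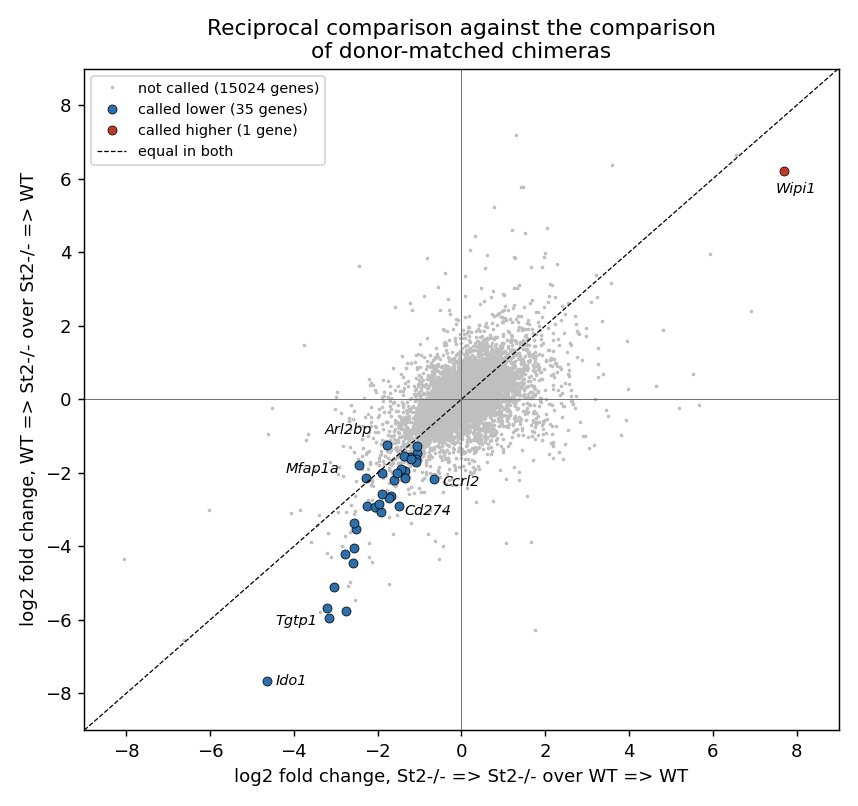
Log2 fold change of each of 15060 genes between WT => St2-/- and St2-/- => WT tumours (vertical axis) and between St2-/- => St2-/- and WT => WT tumours (horizontal axis), which share no library. The 35 genes called lower lie at the lower left, most of them below the dashed line of equal size. Wipi1 lies at the upper right. Both comparisons come from the same fit.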

How the data were processed

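RNA of snap-frozen colon tumours was sequenced from TruSeq libraries as single-end reads of 50 bases on 1 flow cell lane, per the labels' protocols. Alignment used TopHat and Bowtie2 on GRCm38 (mm10), per the submitters' processing notes. The sources used here do not name the counting tool, annotation or strand setting. The authors deposited raw counts of reads for 24062 genes in 12 libraries. Another 5 entries that name no gene (49.8% to 59.6% of each library) entered neither library sizes nor tests.

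In R 4.3.3, edgeR 4.0.16 kept 15060 genes (filterByExpr, minimum count 10), removed 9002, scaled by TMM and fitted a robust quasi-likelihood model with 1 coefficient for each of 4 groups over all 12 libraries. Tests were two-sided and called under 0.05 after Benjamini-Hochberg adjustment. The comparison of the comparisons is the average marrow contrast. CPM are scaled by TMM, with 3 libraries a group. The labels call the samples biological replicates. Replicate numbers did not pair samples: same-number correlations of deviations were -0.29, -0.23 and -0.44. The fitting step was tested on simulated counts. Alternatives used DESeq2 1.42.0, limma 3.58.1 and others named in the closing section. Figures used Python 3.11.15.

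Named genes were up to 15 called genes in each direction with the smallest p, an absolute log2 fold change of 1 or more and no overlap between groups, leaving out predicted and sex-linked genes, then Il1rl1, Il33 and up to 4 members of each described list by p or by their defining role. Other called genes, and H2-K1, Mcpt1, Pecam1, Cd3e, Krt8, Krt5 and Xist, were named after values were seen. The separate values of 1 other called gene are not reported here. Members, lists (811 entries, 795 in the table) and tests were chosen with earlier results of these data known. Positions are from GENCODE M21, and 99.4% of gene names matched RefSeq.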

Additional observations from a re-analysis of the deposited data

How the results depend on the processing

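With 3 tumours a group, and few reads for genes such as Ifng, smaller differences may have been missed. The 36 calls became 259 with the DESeq2 Wald test (81.9% of them lower, against 97.2% with edgeR), 16 with limma-voom and quality weights (87.5% lower), 55 with a smooth muscle score as covariate, 2 with weeks after AOM as covariate, 3 without WT => St2-/- replicates 2 and 3, and 0 with only the 6 libraries compared. With the replicate block 1 gene was called, Wipi1, and 0 of the 3 WT => St2-/- libraries correlated best with the library of their own number. Leaving out each of the 12 libraries in turn gave 1 to 43 calls. The cause of these shifts was not tested. DESeq2 size factors gave 41 calls, no filter 38 and a CPM filter of 1 in 3 libraries 36. Calls with the same direction in the matched comparison numbered 246 of 259 with DESeq2, and in every other setting with a value they equalled the calls: 16 with limma-voom, 55 with the smooth muscle score, 2 with weeks, 1 with the block, 3 without the pair of replicates, and 1 to 43 with single libraries left out. The fit to 6 libraries gives no value for the matched comparison or the marrow average. The marrow average had 0 calls in every setting run. Il1rl1 was called with DESeq2 (log2 fold change -2.98, adjusted p = 0.000733) and lay between -3.61 and -2.45 over the 22 alternatives. No called gene changed sign in any of them, and 36 of 36 lost the call in at least 1.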

Other observations

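Il13, which encodes a cytokine that interleukin-33 induces through ST2, was removed by the filter on low counts and was named after its values were seen. It had 39 reads in WT => St2-/- replicate 2 and at most 2 reads in each of the other 11 libraries. That tumour was also the highest of its group for most mast cell genes.

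Sfi1, a centrosome gene, and Hspe1, a mitochondrial chaperonin, lay just outside the threshold and were named after their values were seen. Sfi1 stood at 64.7, 110.2 and 101 CPM in WT => St2-/- tumours and 29.9, 32.1 and 33.5 CPM in St2-/- => WT tumours (edgeR adjusted p = 0.0501). Hspe1 stood at 64.7, 95.3 and 64.7 CPM in WT => St2-/- tumours and 27.9, 25 and 24.8 CPM in St2-/- => WT tumours (edgeR adjusted p = 0.0504).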
